A study of Mus musculus with 8 samples.

Results

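The genes described here encode secreted matrix glycoproteins, the proteins of elastic fibres and microfibrils, and matrix proteoglycans. They are 44 of the 24346 genes listed in an RNA-seq study of adipose-derived stem cells (ADSCs) from mice. They were chosen by name and by the known role of their product, with earlier results of these data known. All 44 were above 0 in at least 1 library. The cells came from the gonadal fat of adult male BALB/c mice of WT genotype. They were grown as primary cultures, either conventionally (2D, 4 libraries from mice 2, 3, 4 and 5) or embedded in Matrigel, a basement membrane extract, with an organoid medium (3D, 4 libraries from mice 1, 4, 5 and 7). Mice 4 and 5 were sequenced in both cultures. The culture types differ in substrate and in medium, and these cannot be told apart here. The passage and medium of each sequenced 3D culture are not given in the sources used here. The description of the 3D library of mouse 1 ends in 13 where those of the other 3D libraries end in 3D. Its title and group label say 3D, and what the 13 stands for is not stated.

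Matrix glycoproteins are secreted by fibroblasts and other mesenchymal cells and join collagens into a network that cells grip through integrins. Fibrillins assemble into microfibrils, on which fibulins, microfibril-associated proteins and emilins help to lay down elastin, and latent TGF-beta binding proteins store TGF-beta on the same microfibrils. Small leucine-rich proteoglycans such as biglycan and decorin bind collagen fibrils and set their spacing, whereas perlecan (Hspg2) is a heparan sulfate proteoglycan of basement membranes.

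The levels below are FPKM values (fragments scaled by transcript length and library depth) after quantile normalization across libraries, and differences are 3D minus 2D on the log2(FPKM + 1) scale, fitted with limma and adjusted over the 18862 genes tested. The adjusted p counts as passed below 0.05. The depth, which the files do not state, was inferred from how low FPKM values step, and came to 17.7 M to 18.8 M fragments in the 2D libraries and 15.7 M to 16.8 M in the 3D libraries. Both cultures are labelled as mesenchymal stem cells. Of 10 mesenchymal stem cell markers, 6 were lower in 3D with an adjusted p below 0.05, among them Thy1 (-7.12, adjusted p = 9.1e-06) and Pdgfrb (listed at 0 in all 4 3D libraries), and Ly6a was higher (3.86, adjusted p = 0.0432). Of 12 epithelial markers, 11 were higher in 3D. Over all genes tested, 20.3% were lower and 21.2% higher. Epcam was between 0 and 0.0504 FPKM in 2D and between 265 and 494 FPKM in 3D, and the summed level of the 12 was 31.8 to 694 FPKM in 2D and 2723 to 3183 FPKM in 3D. No gene passed among 5 endothelial markers or 7 mesothelial markers, while 1 of 7 epididymal markers (Spink8) and 1 of 5 macrophage markers (Cd68) were higher and 1 of 3 adipocyte markers (Lpl) was lower. The part of the change in markers in the results that follow was not tested, and in such bulk libraries fewer cells of a type and less RNA per cell cannot be told apart.

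Most of the matrix genes fell in the 3D cultures. With an adjusted p below 0.05, 31 of the 44 genes were lower in 3D, where 20.3% of all genes tested were. None was higher (0 of 44, also 0 at an unadjusted p below 0.05), where 21.2% of all genes tested were. In 30 genes all 4 2D libraries lay above all 4 3D libraries (20.9% of all genes tested), and in 0 genes the 3D libraries all lay above (21.6%). The median difference was -2.56 over the 44 genes (-2.62 with the 5 genes that were listed at 0 in all 3D libraries and had a lower bound on their fold set to that bound) and 0.0012 over all genes tested. Among the 34 members with a mean of at least 1 FPKM, 26 were lower, where 26.4% of all genes of that level were. In 26 of the 44 genes every 3D library was below 1 FPKM. Of these, Sparcl1, Smoc1, Thbs4, Comp, Tnxb, Eln, Fbn2 and Lum were below 1 FPKM in every 2D library too. Of the 44 genes, 29 reached 10 FPKM in at least 1 2D library. These levels were not counted over all genes tested.

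The fit with the mouse as a fixed block leaves 1 residual degree of freedom. It called 0 of the 44 genes (smallest adjusted p = 0.111) and 0 of all genes tested. At an unadjusted p below 0.05, 26 of the 44 were lower (12.6% of all genes tested) and 0 higher (15% of all genes tested). With the mouse as a random effect, 31 genes were lower. In mice 4 and 5, which gave both cultures, 37 of the 44 genes were lower in 3D than in 2D in both mice, as were 32.2% of all genes tested.

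**Figure D1:**
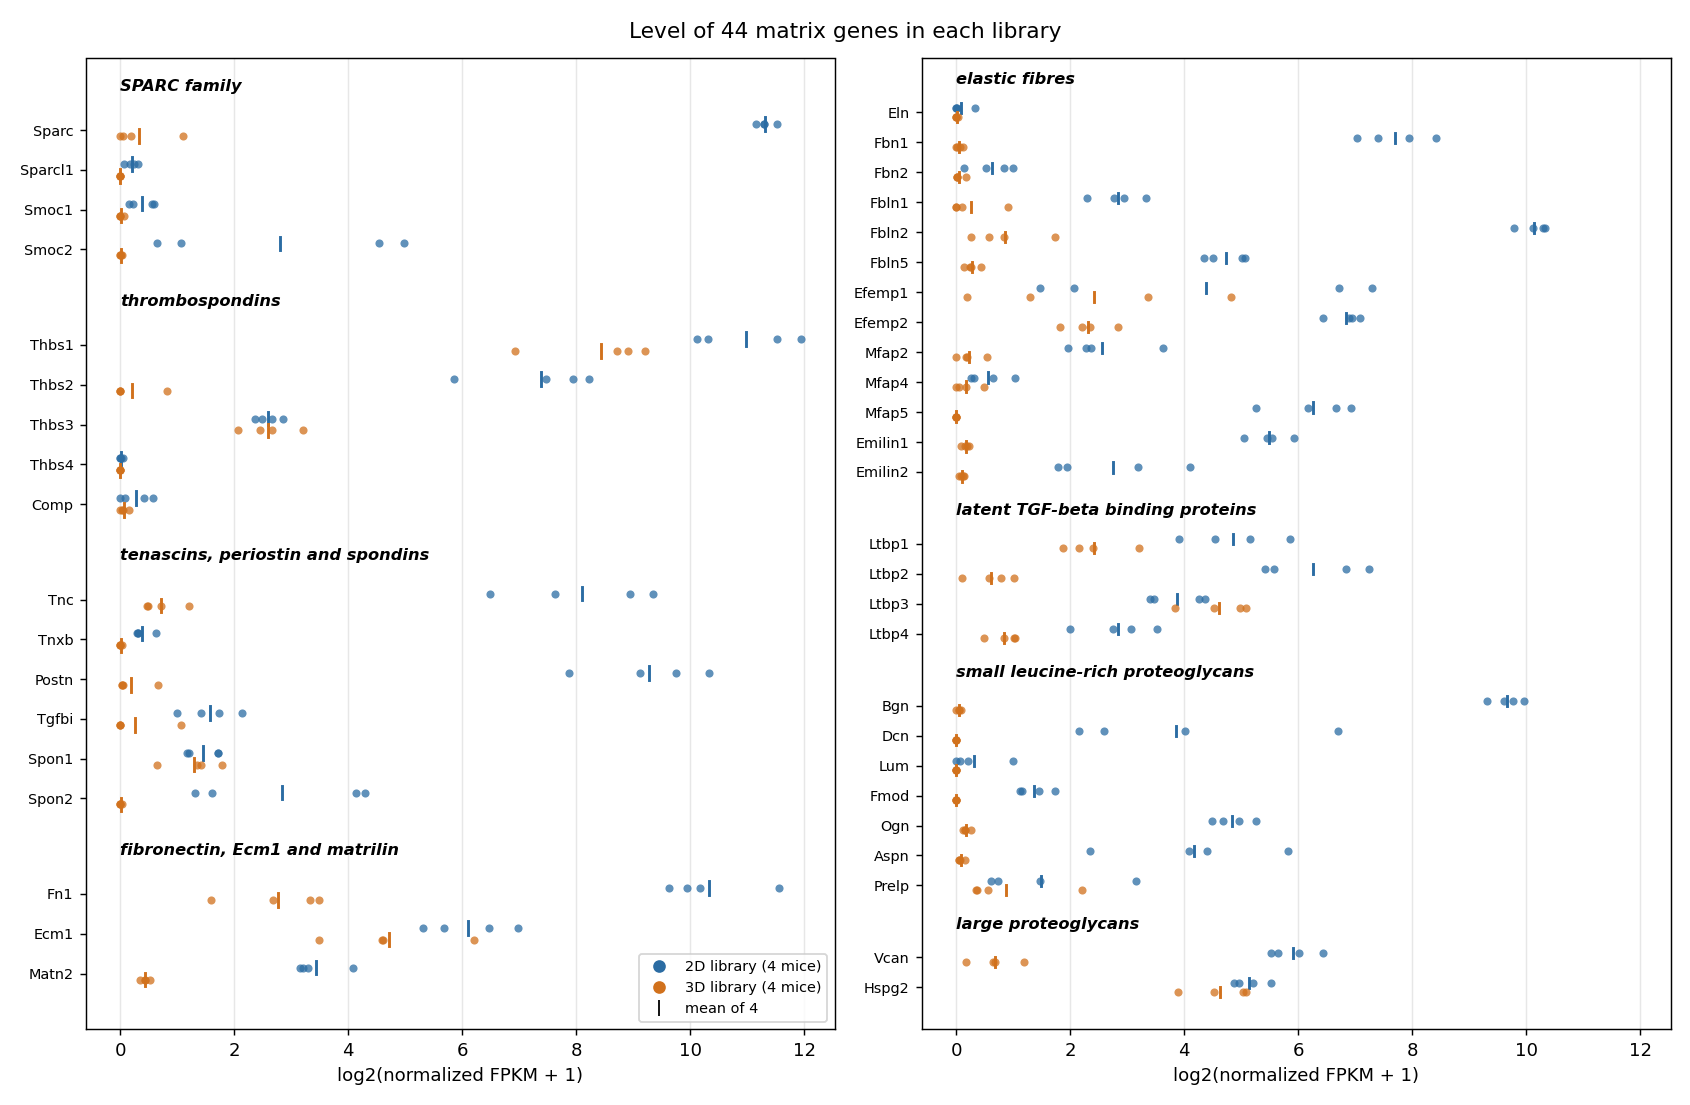
Level of each of the 44 matrix genes in each library, as log2(normalized FPKM + 1) on the horizontal axis, with genes grouped by role; blue points are the 4 2D libraries, orange points the 4 3D libraries and bars their means. In 30 genes the blue points all lie to the right of the orange points. In 26 genes every orange point is below 1 FPKM, and in some of these, such as Lum and Eln, every blue point is too.

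**Figure D2:**
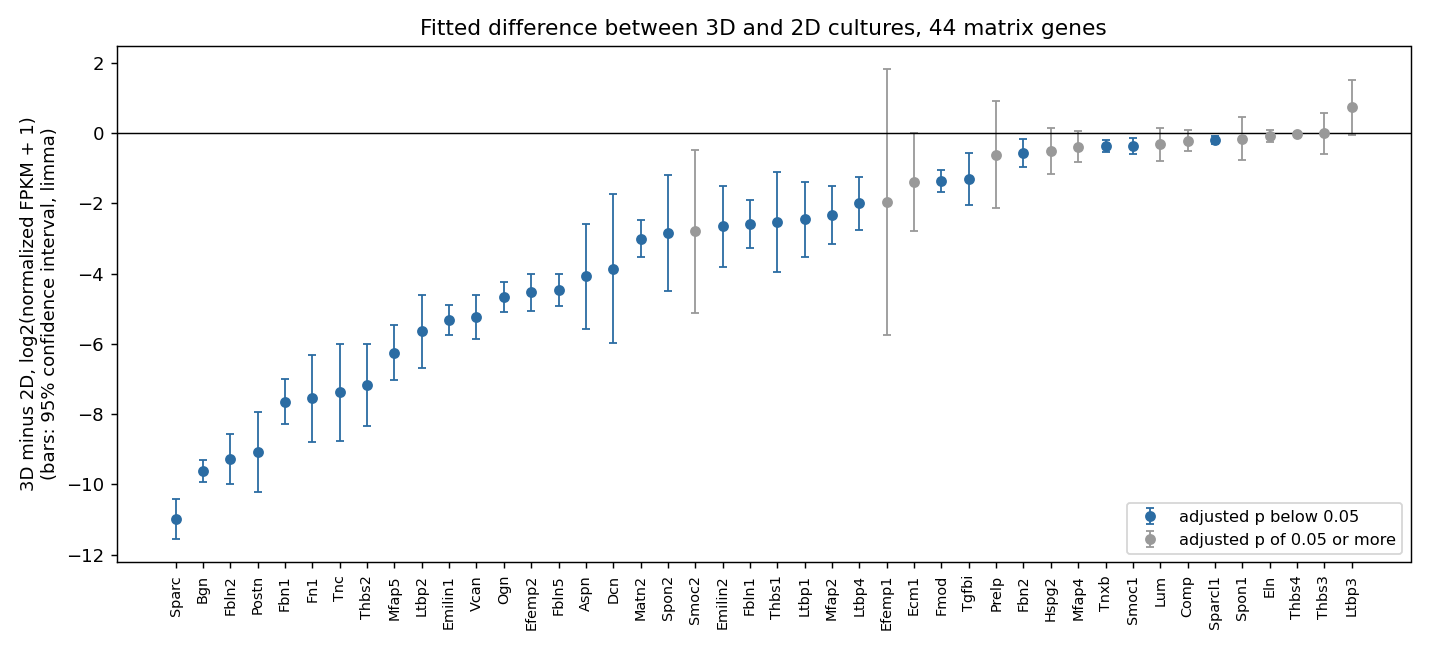
Fitted 3D minus 2D difference on the log2(normalized FPKM + 1) scale with its 95% confidence interval (limma, 4 libraries per culture), ordered by size; blue marks the 31 genes with an adjusted p below 0.05. The differences run from -10.99 (Sparc) to 0.73 (Ltbp3), whose interval includes 0.

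The promoters of these genes were compared where RefSeq (GRCm38.p6) entries of 300 bases around the transcription start were at hand, which was so for 29 of the 44 genes. The GC box GGGCGG, searched on both strands, was present for 18 of the 29 genes (62.1%) and for 38.2% of all 27025 genes with an entry. A gene counts if any of its entries holds the motif, and all genes with an entry were used, tested or not. Counted by entry, the GC box was in 23 of 40 (57.5%) for the members and in 35.7% of all 32851. The TATA box TATAAA was present for 6 of 29 (20.7%, all genes 15.7%), the AP-1 motif TGANTCA for 4 (13.8%, all genes 8.97%), the TEAD motif GGAATG for 4 (13.8%, all genes 16.6%) and the E-box CACCTG for 4 (13.8%, all genes 22.6%). GC boxes were found for 13 of the 22 genes that fell and for 5 of the 7 that did not pass, and TGANTCA for 1 of 22 and 3 of 7. The stretches from 120 bases before to 30 bases after the start are shown for 3 genes that fell (Bgn, Fbln2, Fbn1) and 3 whose change did not pass (Hspg2, Ltbp3, Thbs3), 5′ to 3′ on the gene's strand, with GGGCGG or its reverse complement in capitals. Matches overlap once, in Bgn.
Bgn (chrX:73483481-73483630, plus strand): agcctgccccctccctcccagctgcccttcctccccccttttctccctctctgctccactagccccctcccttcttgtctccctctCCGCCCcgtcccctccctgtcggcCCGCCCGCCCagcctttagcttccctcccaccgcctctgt
Fbln2 (chr6:91212644-91212793, plus strand): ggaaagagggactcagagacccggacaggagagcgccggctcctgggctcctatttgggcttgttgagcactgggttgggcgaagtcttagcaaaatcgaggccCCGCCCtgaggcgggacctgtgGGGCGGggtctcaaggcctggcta
Fbn1 (chr2:125506409-125506558, minus strand): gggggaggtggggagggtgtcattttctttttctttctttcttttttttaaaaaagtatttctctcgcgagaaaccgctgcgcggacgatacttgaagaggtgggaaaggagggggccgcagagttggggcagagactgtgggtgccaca
Hspg2 (chr4:137468683-137468832, plus strand): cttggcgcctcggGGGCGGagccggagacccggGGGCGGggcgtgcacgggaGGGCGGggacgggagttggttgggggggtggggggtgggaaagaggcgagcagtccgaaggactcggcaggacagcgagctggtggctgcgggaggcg
Ltbp3 (chr19:5740780-5740929, plus strand): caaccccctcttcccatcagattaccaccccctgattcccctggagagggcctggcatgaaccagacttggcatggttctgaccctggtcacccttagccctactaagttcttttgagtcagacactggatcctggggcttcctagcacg
Thbs3 (chr3:89215060-89215209, plus strand): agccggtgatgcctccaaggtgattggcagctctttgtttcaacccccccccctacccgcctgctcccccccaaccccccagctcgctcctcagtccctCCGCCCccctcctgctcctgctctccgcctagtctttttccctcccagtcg
The motif stands 3 times in the stretch of Bgn, 2 times in that of Fbln2, 3 times in that of Hspg2 and 1 time in that of Thbs3, and 0 times in those of Fbn1 and Ltbp3. The entries of Sparc and Postn, which also fell by over 9 log2 units, do not hold it, and that of Fbn1 holds it only outside the stretch shown. A match is a description of these letters only.

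Sparc, a secreted calcium-binding glycoprotein that binds collagen, fell by the largest amount of the 44 genes on the log2(FPKM + 1) scale. Its normalized level was 2515, 2284, 2923 and 2515 FPKM in 2D (mice 2, 3, 4 and 5, the order kept below), and 1.13, 0.135, 0.0293 and 0 FPKM in 3D (mice 1, 4, 5 and 7). All 2D libraries were high and close together, the equal values of mice 2 and 5 coming from equal ranks, and the library of mouse 1 was the highest in 3D at 0.0443% of the 2D mean. The difference was -10.99 (SE 0.24, adjusted p = 1.1e-07, n = 4 per culture). Sparc also fell most with 0.1 in place of 1 added before the logarithm (-13.33). The lowest difference of Bgn over the alternative settings was -12.62. The 3D mean was 0.0127% of the 2D mean for Sparc and 0.0037% for Bgn. All 3D values of Bgn were at or below what 3 fragments give, so these shares do not show which gene fell more. Against 3 fragments per library, the values of Bgn as deposited were at least 8375-fold lower in 3D. In 2D, Sparc ranked between 24 and 32 among all genes of a library. Sparc lies on chromosome 11 (mm10, 55394500 to 55423183, minus strand).

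The other SPARC family genes were low. Sparcl1 and Smoc1, which encode related calcium-binding proteins, fell by 0.20 (adjusted p = 0.0172) and 0.37 (adjusted p = 0.0213) from 2D levels of at most 0.244 and 0.506 FPKM, and Smoc1 lost its call without the 2D library of mouse 2 (adjusted p = 0.0514) or the 3D library of mouse 7 (adjusted p = 0.0507). Smoc2 was at 22.1, 0.573, 1.10 and 30.6 FPKM in 2D and between 0 and 0.0182 FPKM in 3D. Its cultures did not overlap, but the 2D libraries spread widely and the difference of -2.80 (SE 1.00, 95% CI -5.13 to -0.47) did not pass (adjusted p = 0.0575). It passed without the 2D library of mouse 3 (-3.52, adjusted p = 0.0212) or of mouse 4 (-3.37, adjusted p = 0.0347).

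Among the thrombospondins, which are large secreted glycoproteins that bind cells, matrix and growth factors, Thbs1 and Thbs2 fell and the rest did not pass. Thbs1 was at 2923, 1112, 1275 and 3905 FPKM in 2D and at 120, 421, 590 and 478 FPKM in 3D. It was the most abundant of the 44 genes in every 3D library and in the 2D libraries of mice 2 and 5, with a mean of 402 ± 201 FPKM against 2304 ± 1345 FPKM in 2D (SD, n = 4), or 17.5% of the 2D mean. The difference was -2.53 (SE 0.61, adjusted p = 0.0123).

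Thbs2, the close relative of Thbs1, was at 176, 57.0, 245 and 297 FPKM in 2D and at 0.759, 0, 0 and 0 FPKM in 3D. Only the library of mouse 1 held any in 3D, and the difference was -7.17 (SE 0.50, adjusted p = 3.2e-05). Thbs3, of the group of thrombospondins that form pentamers, was at 4.16, 4.62, 6.25 and 5.36 FPKM in 2D and at 3.19, 4.47, 5.34 and 8.23 FPKM in 3D. These ranges overlap fully, and the difference was 0.0008 (95% CI -0.59 to 0.59, adjusted p = 0.998), with a sign that changed between settings. Its exons share 6.59% of their bases with Mtx1 on the opposite strand, and whether the counting used strand is not given in the sources used here. Thbs4 and Comp, the other pentameric members, did not exceed 0.488 FPKM in any library, and Comp did not pass (adjusted p = 0.219).

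The tenascins, periostin and the spondins held 5 genes that fell among 6. Postn (periostin), which links collagen, fibronectin and tenascin, was at 861, 233, 552 and 1288 FPKM in 2D and at 0.585, 0.0382, 0.0242 and 0.0194 FPKM in 3D. The difference was -9.07 (SE 0.49, adjusted p = 8.2e-06), and the cultures did not overlap. Tnc (tenascin C), an anti-adhesive glycoprotein of healing and developing tissue, was at 88.5 to 648 FPKM in 2D and 0.377 to 1.31 FPKM in 3D, with a difference of -7.38 (SE 0.60, adjusted p = 6.4e-05).

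Tnxb (tenascin X), a collagen-associated tenascin of connective tissue, fell by 0.38 (adjusted p = 0.0048) from 2D levels of at most 0.537 FPKM, and Spon2, a secreted spondin, fell by 2.83 (SE 0.71, adjusted p = 0.0145). Tgfbi, a periostin relative that also fell, was at 2.31, 1.01, 1.68 and 3.37 FPKM in 2D and at 1.09, 0, 0 and 0 FPKM in 3D. The library of mouse 1 lay above the lowest 2D library, so that the cultures overlapped, and the difference was -1.30 (SE 0.32, adjusted p = 0.0137). Spon1 (F-spondin) was the most abundant gene of this group in 3D. It was at 1.31, 2.28, 2.30 and 1.26 FPKM in 2D and at 0.570, 1.67, 2.45 and 1.55 FPKM in 3D. Its cultures overlapped, and the difference of -0.15 (95% CI -0.77 to 0.47, adjusted p = 0.664) turned positive in the values as deposited (0.14).

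Fn1 (fibronectin), the integrin-binding glycoprotein on which other matrix proteins assemble, was at 976, 3005, 787 and 1151 FPKM in 2D and at 2.00, 9.05, 10.2 and 5.38 FPKM in 3D. Every 2D library was above every 3D library, at 1480 ± 1028 against 6.65 ± 3.71 FPKM (SD, n = 4), and the difference was -7.55 (SE 0.54, adjusted p = 3.5e-05). Fn1 lies on chromosome 1 (mm10, 71585520 to 71653200, minus strand).

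Matn2 (matrilin 2), a filament-forming adaptor, fell by 3.00 (SE 0.22, adjusted p = 4.4e-05). Its 2D values were 7.89, 15.9, 8.28 and 8.86 FPKM and its 3D values 0.358, 0.275, 0.438 and 0.348 FPKM, with the library of mouse 3 standing above the others in 2D. Ecm1, a secreted glycoprotein of skin and vessel matrix, was at 38.6, 125, 87.0 and 50.2 FPKM in 2D and at 73.1, 23.3, 23.0 and 10.2 FPKM in 3D. The 3D library of mouse 1 lay within the 2D range and the others lay below it. The difference was -1.38 (SE 0.60, 95% CI -2.78 to 0.01, adjusted p = 0.104) with all libraries, -1.91 (adjusted p = 0.0182) without the library of mouse 1, and -1.67 (adjusted p = 0.0423) in the values as deposited.

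Of the 13 elastic fibre genes, 10 fell, and Eln, Efemp1 and Mfap4 did not pass. Fbln2 (fibulin 2), which binds fibronectin and fibrillin, was at 876, 1288, 1248 and 1112 FPKM in 2D and at 2.32, 0.797, 0.488 and 0.202 FPKM in 3D. The 2D libraries were within a narrow range and the 3D libraries far below it, with a difference of -9.27 (SE 0.30, adjusted p = 7.0e-07). Fbln2 lies on chromosome 6 (mm10, 91212455 to 91272540, plus strand).

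Fbn1 (fibrillin 1), the main backbone of microfibrils, was at 129 to 341 FPKM in 2D and at 0 to 0.0920 FPKM in 3D, and fell by 7.65 (SE 0.28, adjusted p = 1.1e-06). A gene model on the opposite strand, Gm9913, shares 20.1% of its exonic bases. Fbn2, the fibrillin of developing tissue, was at 0.0983 to 0.995 FPKM in 2D and 0.00769 to 0.121 FPKM in 3D. Its difference of -0.57 passed narrowly (adjusted p = 0.0308), the cultures overlapped, and the call was lost without any of the libraries other than the 2D library of mouse 5. It was also lost in the values as deposited (adjusted p = 0.0627) and without a filter on low values (adjusted p = 0.0579).

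Mfap5, a microfibril-associated glycoprotein, was at 37.3 to 121 FPKM in 2D and listed at 0 in all 4 3D libraries. In the values as deposited, without quantile normalization, it was at least 286-fold lower, with 3 fragments per library taken as the floor. Its relative Mfap2 fell by 2.33 (adjusted p = 0.0014). The fibulins Fbln1 and Fbln5 fell by 2.58 (adjusted p = 3.5e-04) and 4.46 (adjusted p = 3.0e-06), and Efemp2 (fibulin 4), needed for elastin crosslinking, fell by 4.53 (adjusted p = 6.0e-06) from 115 ± 20.5 to 4.10 ± 1.53 FPKM (SD, n = 4). Emilin1 and Emilin2, which sit between elastin and microfibrils, fell by 5.33 (adjusted p = 9.0e-07) and 2.65 (adjusted p = 0.0039).

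Eln, which encodes the elastin core itself, was barely present in either culture. It was at 0.255, 0, 0.00375 and 0 FPKM in 2D and at 0, 0, 0.0196 and 0 FPKM in 3D (adjusted p = 0.444), so that no fold is given. Efemp1 (fibulin 3) had the highest 3D mean of the elastic fibre genes. It was at 1.76, 103, 156 and 3.20 FPKM in 2D and at 0.141, 9.28, 27.3 and 1.44 FPKM in 3D. Its libraries ran over an 88.5-fold range within 2D alone, and the difference of -1.97 (SE 1.63, 95% CI -5.75 to 1.82) did not pass (adjusted p = 0.376).

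Of the 4 latent TGF-beta binding proteins, which hold TGF-beta in the matrix, 3 fell. Ltbp2, which binds fibrillin but not TGF-beta, was at 113, 46.4, 41.4 and 150 FPKM in 2D and at 0.725, 1.01, 0.493 and 0.0703 FPKM in 3D, with a difference of -5.64 (SE 0.44, adjusted p = 5.7e-05). The cultures did not overlap. An antisense gene, D030025P21Rik, shares 9.34% of its exonic bases. Ltbp1 fell by 2.45 (adjusted p = 0.0038) to 4.66 ± 2.47 FPKM (SD, n = 4) and Ltbp4 by 2.00 (adjusted p = 0.0020) to 0.807 ± 0.296 FPKM.

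Ltbp3 was the gene with the largest positive difference of the 44. It was at 10.02, 19.6, 18.2 and 9.51 FPKM in 2D and at 13.3, 30.3, 32.8 and 22.0 FPKM in 3D. The 3D library of mouse 1 lay within the 2D range and the others lay above it. The difference of 0.73 (SE 0.34, 95% CI -0.06 to 1.53) did not pass (adjusted p = 0.127). It was 1.00 and passed (adjusted p = 0.0358) without the library of mouse 1, which made Ltbp3 the only member that was then higher.

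Of the 7 small leucine-rich proteoglycans, 5 fell, and Lum and Prelp did not pass. Bgn (biglycan), a class I member with chondroitin or dermatan sulfate chains, was at 777, 872, 635 and 999 FPKM in 2D and at 0.0581, 0, 0.0327 and 0.0293 FPKM in 3D. All 3D values were at or below what 3 fragments give for this gene (0.0943 to 0.113 FPKM over the libraries). The difference of -9.62 (SE 0.13, adjusted p = 1.4e-08) therefore depends on the value added before the logarithm. Bgn lies on chromosome X (mm10, 73483602 to 73495933, plus strand), and its promoter stretch is shown above.

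Dcn (decorin), also of class I, was at 3.43, 15.1, 102 and 5.01 FPKM in 2D and listed at 0 in all 4 3D libraries. The level in 2D differed strongly between mice, with the library of mouse 4 the highest. Dcn fell by 3.86 (SE 0.91, adjusted p = 0.0113). Against 3 fragments per library, its values as deposited were at least 266-fold lower, and at least 56.8-fold lower without the 2D library of mouse 4. Fmod (fibromodulin), a class II member that regulates collagen fibril growth, was at 1.16 to 2.31 FPKM in 2D and listed at 0 in all 3D libraries. Fmod fell by 1.36 (adjusted p = 1.9e-04), and was at least 19.8-fold lower in the values as deposited. Ogn and Aspn, which lie near each other on chromosome 13, fell, with differences of -4.67 (SE 0.19, adjusted p = 1.7e-06) and -4.08 (SE 0.64, adjusted p = 0.0017).

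Lum (lumican) reached 0.988 FPKM in 1 2D library and was listed at 0 in all 3D libraries (adjusted p = 0.251). Prelp, which binds collagen and perlecan, had the highest 3D mean of this group. It was at 0.528, 0.657, 7.84 and 1.78 FPKM in 2D and at 3.63, 0.285, 0.279 and 0.471 FPKM in 3D, with the library of mouse 1 apart from the others in 3D. The difference was -0.62 (adjusted p = 0.479), and an antisense gene model, Gm15851, shares 9.68% of its exonic bases.

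Of the large proteoglycans, Vcan (versican), a hyaluronan-binding chondroitin sulfate proteoglycan, was at 48.7, 45.2, 63.6 and 85.2 FPKM in 2D and at 0.123, 0.611, 1.29 and 0.559 FPKM in 3D. The cultures were far apart, and Vcan fell by 5.23 (SE 0.27, adjusted p = 6.9e-06). Hspg2 (perlecan) was at 44.7, 36.0, 28.4 and 30.2 FPKM in 2D and at 31.6, 22.0, 33.0 and 13.8 FPKM in 3D. Its cultures overlapped, and the difference of -0.51 (SE 0.28, 95% CI -1.16 to 0.14) did not pass (adjusted p = 0.189). A p that misses the threshold does not show equal levels, and the interval leaves room for a fall of over 1 log2 unit.

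The summed level of the 44 genes was 10596 ± 1772 FPKM in 2D and 524 ± 193 FPKM in 3D (SD, n = 4), or 1.10% and 0.0542% of the FPKM of all genes tested. The largest 2D shares were those of Thbs1, Sparc, Fn1, Fbln2, Bgn and Postn, which were the 6 leading genes of each 2D library. In 3D, Thbs1 made up 44.4%, 78.9%, 79.7% and 86.8% of the sum in mice 1, 4, 5 and 7, against 11.2% to 30.1% in 2D. Without Thbs1 the sum was 8292 FPKM in 2D and 121 FPKM in 3D. After Thbs1, the leading 3D genes were Ecm1 (27.1% of the sum) and Hspg2 (11.7%) in mouse 1, and Ltbp3 (4.00% to 5.68%) with Hspg2 (2.51% to 4.46%) and Ecm1 (1.85% to 4.37%) in the others, with Efemp1 at 3.69% in mouse 5.

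**Figure D3:**
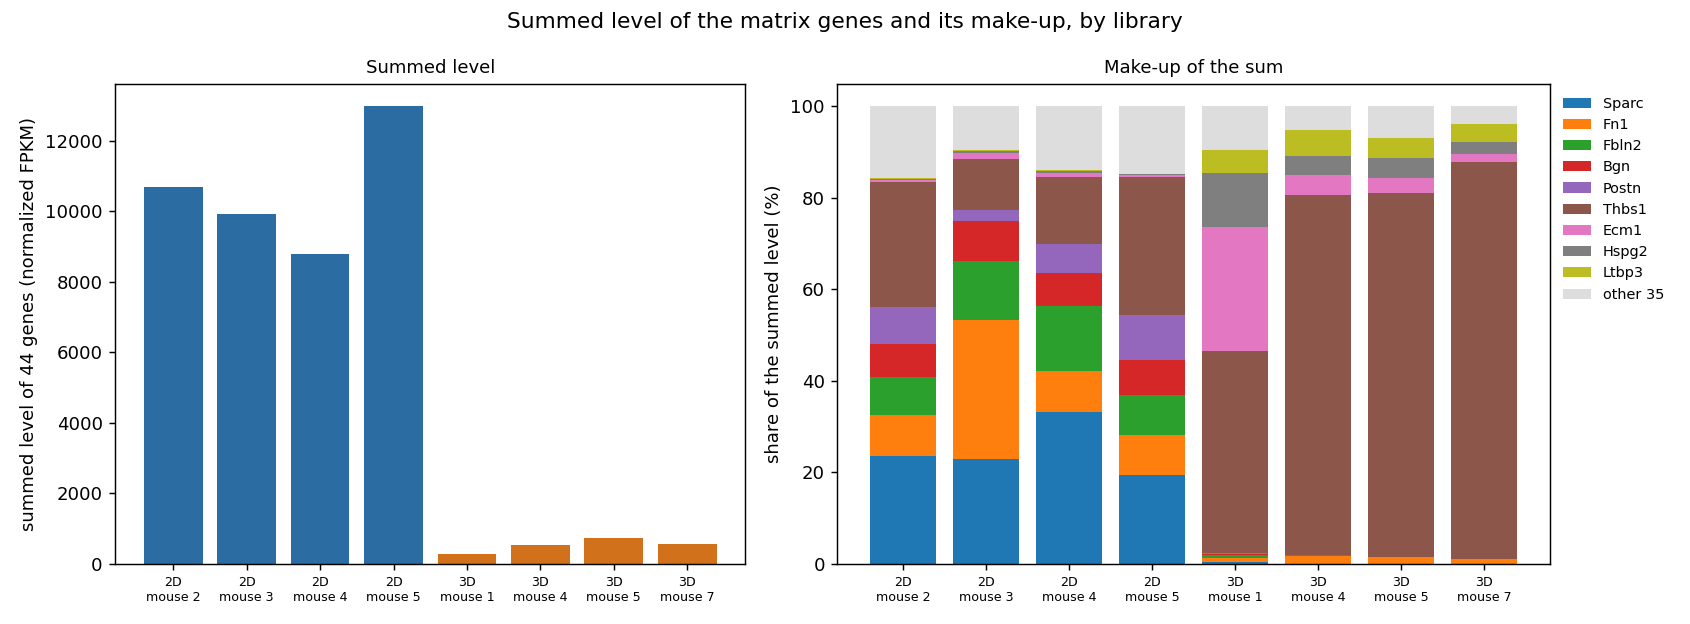
Left, summed level of the 44 genes in each library in normalized FPKM; right, the share of 9 genes and of the other 35 in that sum, in percent. The sum is 8781 to 12977 FPKM in the 2D libraries and 270 to 740 FPKM in the 3D libraries, and Thbs1 takes 44.4% to 86.8% of it in 3D.

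The 2D libraries were not alike. The genes described next were chosen after their values were seen. Efemp1, Spon2, Emilin2 and Dcn were higher in the 2D libraries of mice 3 and 4 than in those of mice 2 and 5. Spon2 was at 1.49, 18.6, 16.5 and 2.06 FPKM in mice 2, 3, 4 and 5. Emilin2 was at 2.43, 8.10, 16.2 and 2.84 FPKM.

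Aspn (20.2, 4.07, 16.0 and 55.4 FPKM), Smoc2 and Tnc (648, 197, 88.5 and 488 FPKM) were higher in mice 2 and 5 than in mice 3 and 4. The summed level of 7 mesothelial markers, such as Msln and Upk3b, was 1.99, 854, 2148 and 0.569 FPKM in the same 4 libraries, and 2.57 to 34.0 FPKM in 3D. Its part in these differences between mice was not tested. The 2D levels of Sparc and Fbln2 differed less between mice, with the highest 1.28-fold and 1.47-fold the lowest, although Fbln2 too was higher in mice 3 and 4.

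**Figure D4:**
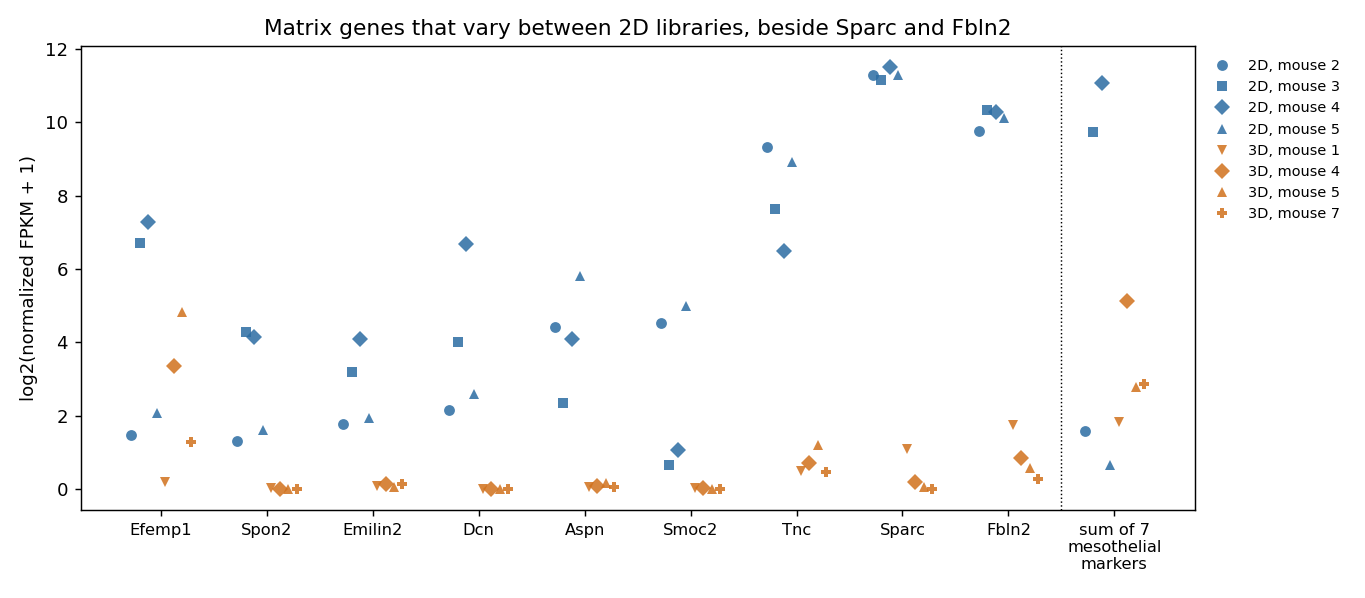
Level of 9 genes in each library as log2(normalized FPKM + 1), with the sum of 7 mesothelial markers at the right; blue symbols are 2D and orange 3D libraries, and each mouse has its own symbol. Efemp1, Spon2, Emilin2 and Dcn are highest in the 2D libraries of mice 3 and 4, where the mesothelial sum is 854 and 2148 FPKM, while the 2D libraries of Sparc and Fbln2 differ by 1.28-fold and 1.47-fold at most.

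Within the 2 mice that gave both cultures, the difference was of like size for some genes and not for others. Sparc differed by -11.33 in mouse 4 and -11.26 in mouse 5, and Fbln2 by -9.44 and -9.55. Efemp1 differed by -3.93 in mouse 4 and 2.75 in mouse 5, and Dcn by -6.69 and -2.59. Ltbp3 was higher in 3D in both mice, by 0.71 and 1.69.

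**Figure D5:**
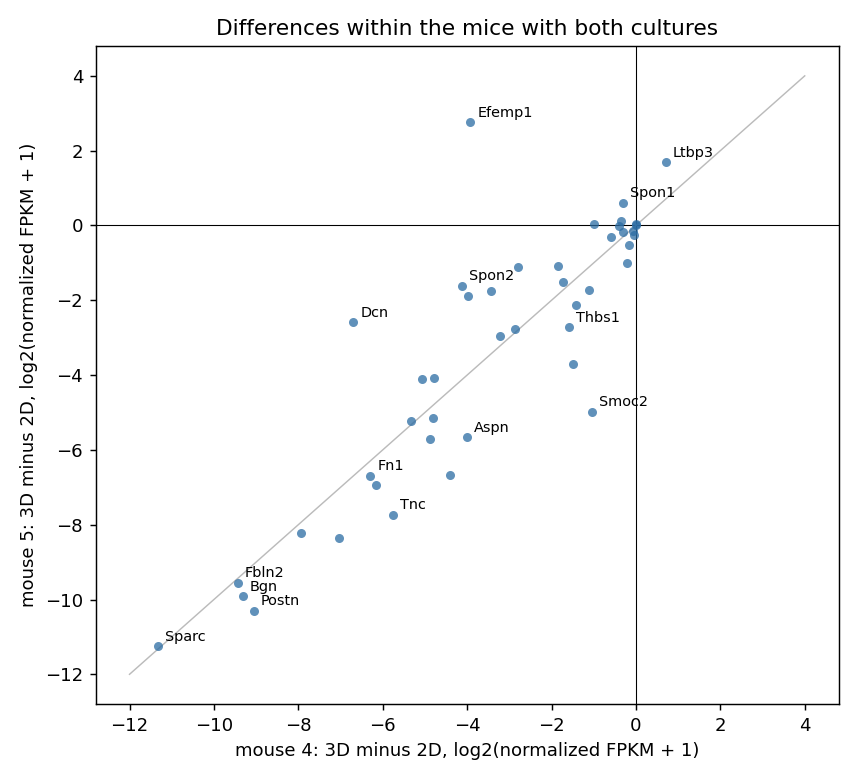
Difference between the 3D and 2D library of mouse 5 against that of mouse 4 for the 44 genes, on the log2(normalized FPKM + 1) scale; the grey line marks equal differences. Of the 44 genes, 37 lie below 0 on both axes, and Efemp1 lies at -3.93 and 2.75.

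The 3D library of mouse 1 was the highest 3D library for 13 of the 38 members above 0 in 3D (34.2%), as it was for 28.6% of all genes. The library of mouse 5 was the highest for 18 of the 38 (47.4%), as it was for 21.8% of all genes. Leaving out the library of mouse 1 kept 31 genes lower, with Ecm1 gained and Fbn2 lost.

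Other genes of the matrix were read from lists kept apart from the 44. Of 47 other matrix glycoproteins tested, 15 were lower in 3D and 4 higher, with a median difference of -0.24. For this and the lists that follow, the shares over all genes tested were 20.3% lower and 21.2% higher. Among those lower were Pcolce, the procollagen C-proteinase enhancer (255 to 0.354 FPKM, -7.54, adjusted p = 7.5e-08), the basement membrane linker Nid1 (313 to 3.24 FPKM, -6.74) and Bmper (-5.62). Among those higher were 2 proteins that anchor epithelial basement membranes, Fras1 (0.705 to 23.6 FPKM, 3.81, adjusted p = 0.0011) and Frem2 (listed at 0 in 2D, 7.04 FPKM in 3D, adjusted p = 9.3e-06), and Papln (2.24).

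Of 17 other proteoglycans and link proteins tested, 6 were lower and 1 higher. Omd (-1.47), Podn (-1.12) and Podnl1 (-0.99), which are leucine-rich proteins like the members above, were the ones that fell most. Agrn (agrin), a heparan sulfate proteoglycan of basement membranes like Hspg2, was at 3.15, 10.8, 6.12 and 3.04 FPKM in 2D and at 161, 298, 365 and 349 FPKM in 3D. Its cultures did not overlap and the difference was 5.52 (SE 0.41, adjusted p = 4.1e-05).

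Of 10 genes for elastic fibre crosslinking and microfibril assembly, 7 were lower and 0 higher (at an unadjusted p below 0.05, 7 and 1, the latter Adamtsl4), with a median of -3.04. The lysyl oxidases, which crosslink elastin and collagen, led this list, with Lox at 422 to 905 FPKM in 2D and 0 to 0.104 FPKM in 3D (-9.40, adjusted p = 2.1e-07), Loxl2 (-7.91) and Loxl3 (-6.50).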

How the data were processed

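RNA was sequenced from 8 mouse ADSC cultures (4 2D, 4 3D). The authors depleted ribosomal RNA, made directional libraries with a NEBNext kit, sequenced paired ends, assessed and trimmed the reads with FastQC, FASTX_Trimmer and BBMap, mapped them with TopHat to mm10 (per the submitters' processing notes) and computed FPKM values with Cufflinks. The deposited FPKM values are 1 table per library, without read counts or the quantile normalization that the methods name.

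Genes at 0 in every library (5484 of 24346) were left out, the others (18862) were quantile normalized, and log2(FPKM + 1) was fitted with limma 3.58.1 in R 4.3.3 (intensity trend, no covariate, Benjamini-Hochberg over all genes tested). The value added understates the change of low genes. Samples were grouped by their labels, and n = 4 per culture. The 44 genes and all lists were chosen with earlier results of these data known. Values in every library are given, per role, for the members highest in each culture, those that fell or rose most, those with a library apart, and Fn1, and other matrix genes are named for the 3 largest falls or rises of their list. Calls were checked under 16 alternatives.

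Depth is not in the files and was estimated from FPKM steps of 875 genes of at least 3000 nt, with 300 bases subtracted from the length; between 71.7% and 83.8% of the low values lay within 0.15 of a whole number of fragments. The floor of a gene is 3 fragments, and floors cover counting error only. Floors and the bounds on folds were set against the values as deposited, without quantile normalization. Coordinates are from GENCODE M21 (mm10). On simulated data, 164 of 200 genes changed by 2 log2 units were called, with 7 calls among the rest of 18854 genes. Far fewer genes were changed in the simulation than were called in the real data, where 20.3% were lower and 21.2% higher. Recovery was not split by level. These rates are therefore not established for the genes described here, least of all for those of low level.

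Same-numbered libraries come from the same animal. Over 12577 genes their deviations from the culture means correlated at -0.05 (mouse 4) and -0.11 (mouse 5), and a random effect of mouse was estimated at a correlation of -0.04.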

Additional observations from a re-analysis of the deposited data

Results flagged for a closer look

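Groups of 4 libraries were examined on the log2(normalized FPKM + 1) scale. The gap between the highest or lowest library and its nearest neighbour was set against the whole range. Of 54 groups examined, 4 had a library apart by Dixon's criterion at the 95% level. On the FPKM scale the marked groups may differ. Chance marks about 1 in 20 groups where values are normally distributed. The values on this log2 scale are bounded at 0, so that rate is not established for these groups. Sparc was at 1.13 FPKM in 3D in the library of mouse 1, against 0 to 0.135 FPKM in the other 3D libraries. Tgfbi was at 1.09 FPKM in that library and listed at 0 in the others. Prelp was at 3.63 FPKM in that library, against 0.279 to 0.471 FPKM in the others. Matn2 was at 15.9 FPKM in 2D in the library of mouse 3, against 7.89 to 8.86 FPKM in the others.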

How the results depend on the processing

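The count of 31 lower members was 31 in the values as deposited, without the intensity trend and with the mouse as a random effect, 32 with a pseudocount of 0.1, 27 when only genes averaging 1 FPKM or more were fitted, 30 without a filter and 29 to 31 with each library left out. It was 20 with mice 4 and 5 alone, where 11 calls were lost, and 0 with the replicate block (mouse as a fixed effect, 1 residual degree of freedom), which also gave 0 lower and 0 higher in the other matrix lists (43 and 6 without it). Fewer residual degrees of freedom are part of both settings. Members higher in 3D numbered 0 to 1 with a library left out, the 1 being Ltbp3 without the 3D library of mouse 1. Members with all 3D libraries above the 2D libraries numbered 0 to 1, with 1 both without that library and in mice 4 and 5 alone. The members' share of all FPKM was 1.28% in 2D and 0.0449% in 3D as deposited.

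The sign turned for 3 genes near 0. Thbs3 was -0.0087 with a pseudocount of 0.1, -0.21 with the replicate block, -0.21 in mice 4 and 5 alone, and from -0.20 to 0.18 with each library left out, negative without the 2D library of mouse 2 (-0.08) or 3 (-0.04) or the 3D library of mouse 5 (-0.02) or 7 (-0.20). Spon1 was 0.14 as deposited, 0.15 with the replicate block, 0.15 in mice 4 and 5 alone and from -0.31 to 0.063 with each library left out, positive without the 3D library of mouse 1. Eln was 0.011 with the replicate block, 0.011 in mice 4 and 5 alone, and from -0.11 to 0.0059 with each library left out, positive without the 2D library of mouse 2. Smoc1 lost its call without the 2D library of mouse 2 (adjusted p = 0.0514) or the 3D library of mouse 7 (adjusted p = 0.0507). Smoc2 gained one with a pseudocount of 0.1 (adjusted p = 0.00725) and when only genes averaging 1 FPKM or more were fitted (adjusted p = 0.0387). The causes were not tested. Depth limits statements on genes of low level in 3D. The level that 3 fragments give ran from 0.0115 FPKM (Hspg2) to 0.350 FPKM (Mfap5) over genes and libraries. In all 3D libraries, 11 members were at or under 3 fragments.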

Other observations

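The enzymes that build chondroitin and dermatan sulfate, the chains of biglycan, decorin and versican, were read from a separate list. Of 21 genes, 15 were lower in 3D and 1 was higher, with a median difference of -1.28 on the log2 scale. Over all genes tested, 20.3% were lower and 21.2% higher. Csgalnact1, which starts chondroitin sulfate chains, was at 19.4 to 41.1 FPKM in 2D and 0 to 0.0802 FPKM in 3D (-5.05). Dse, the epimerase that makes dermatan sulfate, was at 28.7 to 37.7 FPKM in 2D and 0.0139 to 0.991 FPKM in 3D (-4.57). Chst11, a chondroitin 4-O-sulfotransferase, fell by 3.55 (limma, adjusted p = 0.0058), and its 3D value of 9.96 FPKM in the library of mouse 1 stood above 0.784, 0.0622 and 0.225 FPKM in the others. Fam20b, a kinase that phosphorylates the xylose of the linker shared with heparan sulfate, rose from 25.8 to 46.8 FPKM (0.82, limma, adjusted p = 0.0026).

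Some small leucine-rich proteoglycan genes are neighbours in the genome, and their levels are given side by side as values only. On chromosome 10 (mm10), Dcn (97479609 to 97518143) reached 102 FPKM in 2D, while Lum (97565128 to 97572703) did not exceed 0.988 FPKM. On chromosome 13, Aspn (49544443 to 49567565) was at 23.9 ± 22.1 FPKM and Ogn (49608046 to 49624501) at 28.3 ± 6.94 FPKM in 2D (SD, n = 4), and both were below 0.2 FPKM in every 3D library. On chromosome 1, Fmod (134037254 to 134048277) was at 1.61 ± 0.538 FPKM and Prelp (133910304 to 133921414) at 2.70 ± 3.47 FPKM in 2D (SD, n = 4).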
